A study of Mus musculus with 28 samples.

Results

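The 6 genes described here encode killer cell lectin-like receptors: Klra2 (Ly49B), Klra17 (Ly49Q), Klrd1 (CD94), Klrk1 (NKG2D), Klrc1 (NKG2A) and Klrb1b (NKR-P1B). They were chosen by name, with earlier results of the same arrays known, and each was read from the probeset that carries its symbol alone. The rule used 1 kind of measured value, the mean over all 28 arrays, to select among probesets of a gene. Of the 6 genes, 5 had such a probeset, 1 each, among 19272 genes in all, so this mean decided nothing. Klrk1 is not analysed here. Of the 5, 4 were bright enough to be tested among 14325 genes, and Klrc1 was not.

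The arrays measured RNA of dendritic cells from mouse kidney, antigen-presenting cells that were freed with collagenase and DNase and sorted by CD45, CD11c and MHC class II. Homeostatic cells were those of untransplanted C57BL/6 and BALB/c mice, with 4 arrays for each region of each strain, the cortex being the outer and the medulla the inner part of the kidney. Graft cells came from the cortex and medulla of kidneys 3 days after transplantation, with 3 arrays each for donor cells (CD45.2, labelled BALB/c) and for host cells (CD45.1, labelled C57BL/6). Cortex and medulla arrays of one number come from the same mouse, and donor and host cells of one number from the same graft, so that the 28 arrays stand for 11 mouse numbers. Ages of the mice are not stated in the labels. Levels are log2 array signal made by RMA, and 1 unit is a doubling. Means are given ± SD, with n = 4 for homeostatic and n = 3 for graft groups, and differences ± SE from limma. A difference passed when its p, adjusted over the 14325 genes, was under 0.05, and a gene was tested when at least 3 arrays had it above their own 40th percentile, which was 7.27 to 7.63.

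Ly49 receptors are paired C-type lectin-like proteins of the cell surface, and many of them bind MHC class I molecules. Most are found on natural killer cells, but Ly49B and Ly49Q are known from myeloid cells and plasmacytoid dendritic cells. Both carry an inhibitory motif that recruits the phosphatase SHP-1. CD94 has no signalling tail of its own and forms pairs with NKG2 proteins: with the inhibitory NKG2A it binds the non-classical class I molecule Qa-1. NKR-P1B is an inhibitory receptor for Clr-b, the product of Clec2d, and NKG2D is an activating receptor for stress-induced ligands such as those of the H60 and Rae-1 families. All 6 genes lie in the natural killer gene complex of chromosome 6.

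The RefSeq promoters of the pair of Ly49 genes are shown because they were the most alike of all member promoters while the levels of these genes followed different patterns over the arrays. Each is the run of 250 bases that ends just before the transcription start, 5′ to 3′ on the minus strand of GRCm38.p6, at chr6:131247363-131247612 for Klra2 and chr6:129876673-129876922 for Klra17. Capitals mark the letters GAGGAA on either strand, a purine-rich core of the kind bound by PU.1, a transcription factor of myeloid cells.
Klra2: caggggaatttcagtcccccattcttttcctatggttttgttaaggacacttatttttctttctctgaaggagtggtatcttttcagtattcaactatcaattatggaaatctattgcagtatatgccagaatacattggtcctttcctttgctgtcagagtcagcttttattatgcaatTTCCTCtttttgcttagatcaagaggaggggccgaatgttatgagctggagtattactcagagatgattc
Klra17: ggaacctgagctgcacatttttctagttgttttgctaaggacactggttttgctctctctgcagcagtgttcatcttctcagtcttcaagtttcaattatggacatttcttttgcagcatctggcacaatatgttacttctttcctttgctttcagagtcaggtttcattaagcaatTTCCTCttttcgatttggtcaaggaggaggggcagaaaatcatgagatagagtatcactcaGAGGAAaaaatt
Of 244 aligned bases, 191 were identical, a share of 78.3%, against 46.4% to 57.5% between the other pairs of member promoters. GAGGAA occurred 1 time in the Klra2 window and 2 times in that of Klra17, and 23.3% of 32851 promoter windows of this length hold it. It also occurred 1 time in the window of Klrb1b, for either start site, and not in those of Klrk1 and Klrc1. A promoter entry was found for 5 of the 6 genes, Klrd1 being the exception. The Runx core TGTGGT, on either strand, occurred 1 time each in the windows of Klrk1 and Klrc1 and in 14.0% of all windows. These are matches of letters and show neither binding nor use.

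Klra2 was high in homeostatic C57BL/6 cells of both regions and lower in all other groups. In homeostatic C57BL/6 cortex its level was 12.30, 12.34, 12.56 and 12.16 in replicates 1 to 4, and in C57BL/6 medulla 12.14, 12.48, 12.34 and 12.04. In BALB/c cortex it was 10.97, 11.00, 9.01 and 9.71, and in BALB/c medulla 6.28, 7.06, 8.67 and 9.18. All 8 C57BL/6 arrays thus lay above all 8 BALB/c arrays, and the C57BL/6 arrays covered a far narrower range. Donor cells of the graft gave 10.45, 9.72 and 8.43 in cortex and 7.47, 6.73 and 6.55 in medulla. Host cells gave 6.75, 7.52 and 7.70 in cortex and 6.52, 6.44 and 6.51 in medulla, below every homeostatic C57BL/6 array although both are labelled with the same strain. Ordered by mean, the groups ran from C57BL/6 cortex (12.34 ± 0.17) and medulla (12.25 ± 0.20) through BALB/c cortex (10.17 ± 0.98), donor cortex (9.53 ± 1.03), BALB/c medulla (7.80 ± 1.36), host cortex (7.32 ± 0.50) and donor medulla (6.92 ± 0.49) to host medulla (6.49 ± 0.05). Among BALB/c-labelled arrays alone it ranged from 6.28 to 11.00, and among C57BL/6-labelled arrays from 6.44 to 12.56. Probe sequences were not used here, so sequence differences between the strains under the probes were not looked at. Neighbours in this order did not overlap only between C57BL/6 medulla and BALB/c cortex and between donor medulla and host medulla.

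**Figure D1:**
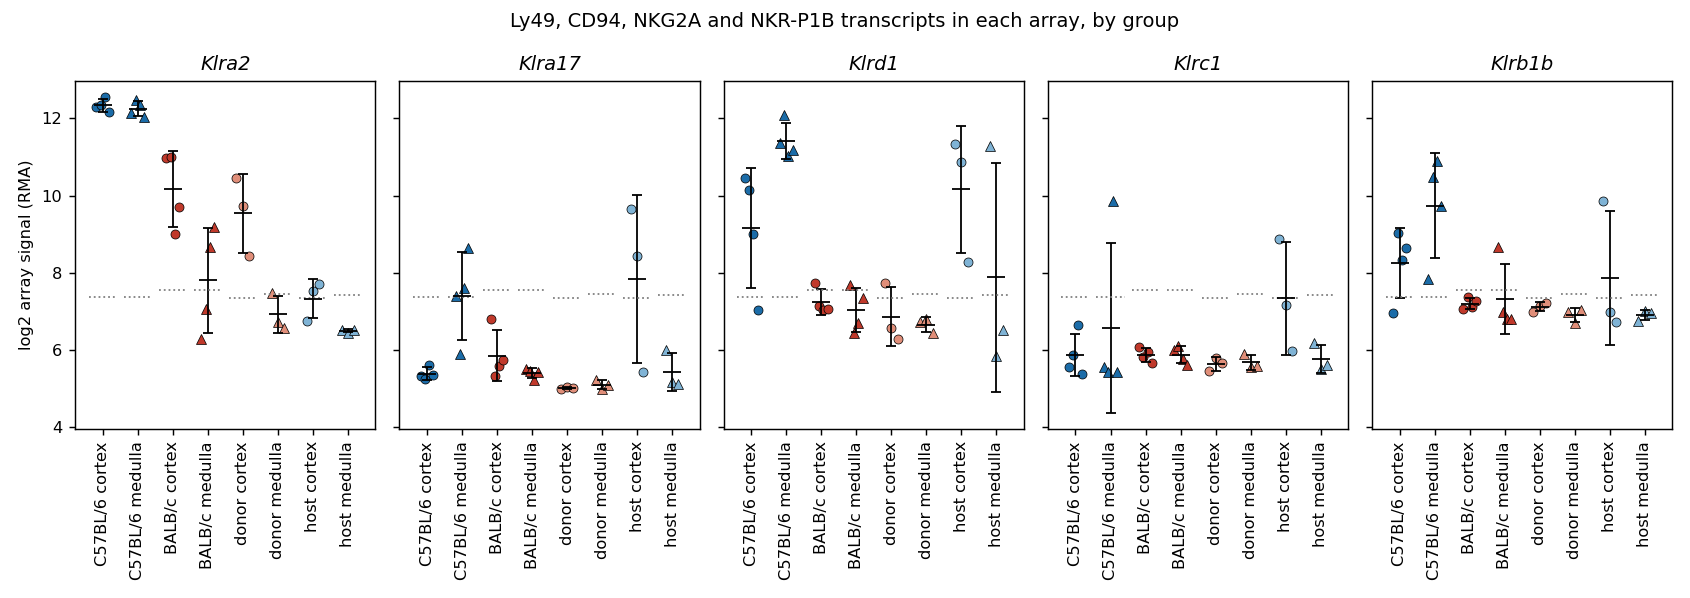
Log2 array signal (y axis) of the 5 measured receptors, 1 panel each, by group (x axis). Circles are cortex and triangles medulla arrays, black lines are the mean and the SD of 4 or 3 arrays, and dotted lines are the group's mean 40th percentile. Klra2 is at 12.04 to 12.56 in all 8 homeostatic C57BL/6 arrays and at 6.44 to 7.70 in the 6 host arrays.

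Klra17 was low in most arrays. Its level was 5.32, 5.25, 5.61 and 5.34 in homeostatic C57BL/6 cortex and 7.40, 5.89, 7.60 and 8.65 in C57BL/6 medulla, so that every medulla array was above every cortex array. BALB/c cortex gave 6.79, 5.31, 5.57 and 5.72 and BALB/c medulla 5.51, 5.44, 5.21 and 5.43. Donor cells lay at 4.99, 5.03 and 5.0 in cortex and 5.21, 4.99 and 5.08 in medulla. Host cells gave the highest values, 9.65 and 8.42, in cortex replicates 1 and 2, but 5.42 in cortex replicate 3 and 5.98, 5.16 and 5.10 in medulla. The gene was above the 40th percentile in 5 of 28 arrays, 3 of C57BL/6 medulla and 2 of host cortex. It passed the filter on dim genes only through these groups, so a difference between them and the rest was built into its being tested, and its differences and contrasts below are a description of the arrays. By mean the order was host cortex (7.83 ± 2.17), C57BL/6 medulla (7.38 ± 1.14), BALB/c cortex (5.85 ± 0.65), host medulla (5.42 ± 0.49), BALB/c medulla (5.40 ± 0.13), C57BL/6 cortex (5.38 ± 0.16), donor medulla (5.09 ± 0.11) and donor cortex (5.01 ± 0.02). C57BL/6 cortex and donor medulla were its only neighbours without overlap.

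Klrd1 was high in homeostatic C57BL/6 cells and host cortex, and its SD was largest in host medulla. Homeostatic C57BL/6 cortex gave 10.46, 10.14, 9.00 and 7.03, and C57BL/6 medulla gave 11.37, 12.09, 11.02 and 11.19. The medulla arrays were all above the cortex arrays. BALB/c cortex gave 7.72, 7.14, 7.03 and 7.06 and BALB/c medulla 7.68, 6.44, 6.70 and 7.33, and donor cells gave 7.72, 6.57 and 6.27 in cortex and 6.71, 6.80 and 6.44 in medulla. The BALB/c-labelled arrays, homeostatic or donor, thus stayed at or below 7.72. Host cells reached 11.34, 10.87 and 8.27 in cortex. In host medulla replicate 1 was at 11.29, and replicates 2 and 3 were at 5.84 and 6.50, the first of these being the lowest Klrd1 value of all arrays. The order by mean was C57BL/6 medulla (11.42 ± 0.47), host cortex (10.16 ± 1.65), C57BL/6 cortex (9.16 ± 1.55), host medulla (7.87 ± 2.97), BALB/c cortex (7.24 ± 0.32), BALB/c medulla (7.04 ± 0.57), donor cortex (6.86 ± 0.77) and donor medulla (6.65 ± 0.19), and all neighbours overlapped.

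Klrb1b had its highest means in homeostatic C57BL/6 cells. It was above the 40th percentile in 9 arrays, 7 of them homeostatic C57BL/6 arrays, and without that strain's arrays it would not have been tested. Like Klra17, it was thus admitted through arrays in which it is high, and its differences from them are a description. Its level was 6.95, 9.04, 8.33 and 8.65 in homeostatic C57BL/6 cortex and 7.83, 10.48, 10.89 and 9.74 in C57BL/6 medulla. BALB/c cortex gave 7.05, 7.36, 7.11 and 7.26, and BALB/c medulla gave 8.67, 6.97, 6.80 and 6.80. In BALB/c medulla replicate 1 was thus above C57BL/6 medulla replicate 1, and the strains overlapped. Donor cells lay at 6.99, 7.14 and 7.22 in cortex and 6.99, 6.68 and 7.03 in medulla. Host cells lay at 9.86, 6.99 and 6.71 in cortex and 6.75, 7.01 and 6.95 in medulla, with only cortex replicate 1 high. Group means ran from C57BL/6 medulla (9.74 ± 1.36) and cortex (8.24 ± 0.91) over host cortex (7.85 ± 1.74), BALB/c medulla (7.31 ± 0.91), BALB/c cortex (7.20 ± 0.14) and donor cortex (7.12 ± 0.12) to donor medulla (6.90 ± 0.19) and host medulla (6.90 ± 0.14), and all neighbours overlapped.

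Klrc1, the partner of Klrd1, was above the 40th percentile in 2 of 28 arrays only: C57BL/6 medulla replicate 3, at 9.86, and host cortex replicate 1, at 8.86. Host cortex replicates 2 and 3 were at 7.17 and 5.96. The other C57BL/6 medulla arrays were at 5.54, 5.42 and 5.43, and C57BL/6 cortex was at 5.56, 5.86, 6.63 and 5.38. Klrd1 was above the 40th percentile in 14 arrays, so Klrc1 was below it in most of those. BALB/c arrays lay between 5.61 and 6.10, donor arrays between 5.44 and 5.90, and host medulla arrays at 6.17, 5.51 and 5.59. Group means were highest in host cortex (7.33 ± 1.46) and C57BL/6 medulla (6.56 ± 2.20) and otherwise between 5.63 and 5.87. With 2 arrays above the percentile, Klrc1 stood just outside the filter, and Klra17, with 5, stood inside it. When limma was run on all 19272 genes without the filter, no Klrc1 difference passed in any comparison. The difference of host cortex from C57BL/6 cortex was then 1.47 ± 0.73 (adjusted p = 0.46).

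Whether the strains differ was asked of homeostatic cells. In medulla, where 9.1% of all tested genes passed in either direction, Klra2 and Klrd1 were lower in BALB/c than in C57BL/6 cells. Klra2 was lower by a log2 difference of -4.45 ± 0.52 (adjusted p = 3.5e-05) and Klrd1 by -4.38 ± 0.87 (adjusted p = 0.0071). Both calls held under every alternative and without any single array. Klrb1b, at -2.42 ± 0.62 (adjusted p = 0.024), and Klra17, at -1.99 ± 0.59 (adjusted p = 0.041), were also under the threshold, but both entered the test through C57BL/6 arrays and are not counted with them. The Klrb1b call was lost without C57BL/6 medulla replicate 2, 3 or 4 or BALB/c medulla replicate 4 (adjusted p 0.056 to 0.079). The Klra17 call was lost without C57BL/6 medulla replicate 1, 3 or 4 or BALB/c medulla replicate 1 or 4 (0.076 to 0.12). In cortex, where 9.8% of genes passed, Klra2 alone of the 4 was lower, by -2.17 ± 0.52 (adjusted p = 0.012), and this call was lost without BALB/c cortex replicate 3 (adjusted p = 0.057) or 4 (0.05). Scaled to leukocyte-wide genes, the cortex call of Klra2 was lost (adjusted p = 0.24), as were the medulla calls of Klrb1b and Klra17 (0.11 each). Fitted with the compared groups alone, Klrb1b (0.11) and Klra17 (0.09) lost theirs as well. In medulla Klra2, Klra17 and Klrd1 did not overlap between the strains, as in 23.5% of all genes, and in cortex only Klra2 of the 4 did not, as in 22.4%. The median difference of all genes between the strains was 0.09 in cortex and 0.17 in medulla. Over all probesets of an array the SD of the signal was 1.46 to 1.67 in BALB/c and 1.71 to 1.78 in homeostatic C57BL/6 arrays. The part of this narrower spread in the receptor differences was not tested. The 20 leukocyte-wide genes, such as Ptprc, which encodes CD45, had median differences of -0.18 and -0.37. Itgax, which encodes the sort marker CD11c, had a mean of 11.09 ± 0.21 in C57BL/6 and 8.43 ± 0.97 in BALB/c medulla. The mean of the 11 tested natural killer markers was 7.99 ± 0.32 in C57BL/6 and 7.94 ± 0.19 in BALB/c cortex, and 8.00 ± 0.13 and 7.87 ± 0.12 in medulla. Of the 11, Cd244a, which encodes the receptor 2B4, was lower in BALB/c cells in both regions (-1.46 ± 0.33 in cortex, -2.29 ± 0.33 in medulla) and Tbx21 was higher in cortex (0.75 ± 0.23). The median difference of the list was 0.24 in cortex and 0.25 in medulla. Their part in the receptor differences was not tested. In sorted bulk RNA, fewer cells of a type and less RNA per cell cannot be told apart. The receptors belong to families of close copies, and whether a probeset also took up RNA of a relative was not tested. Whether sequence differences between the strains under the probes changed the signal was not tested either.

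**Figure D2:**
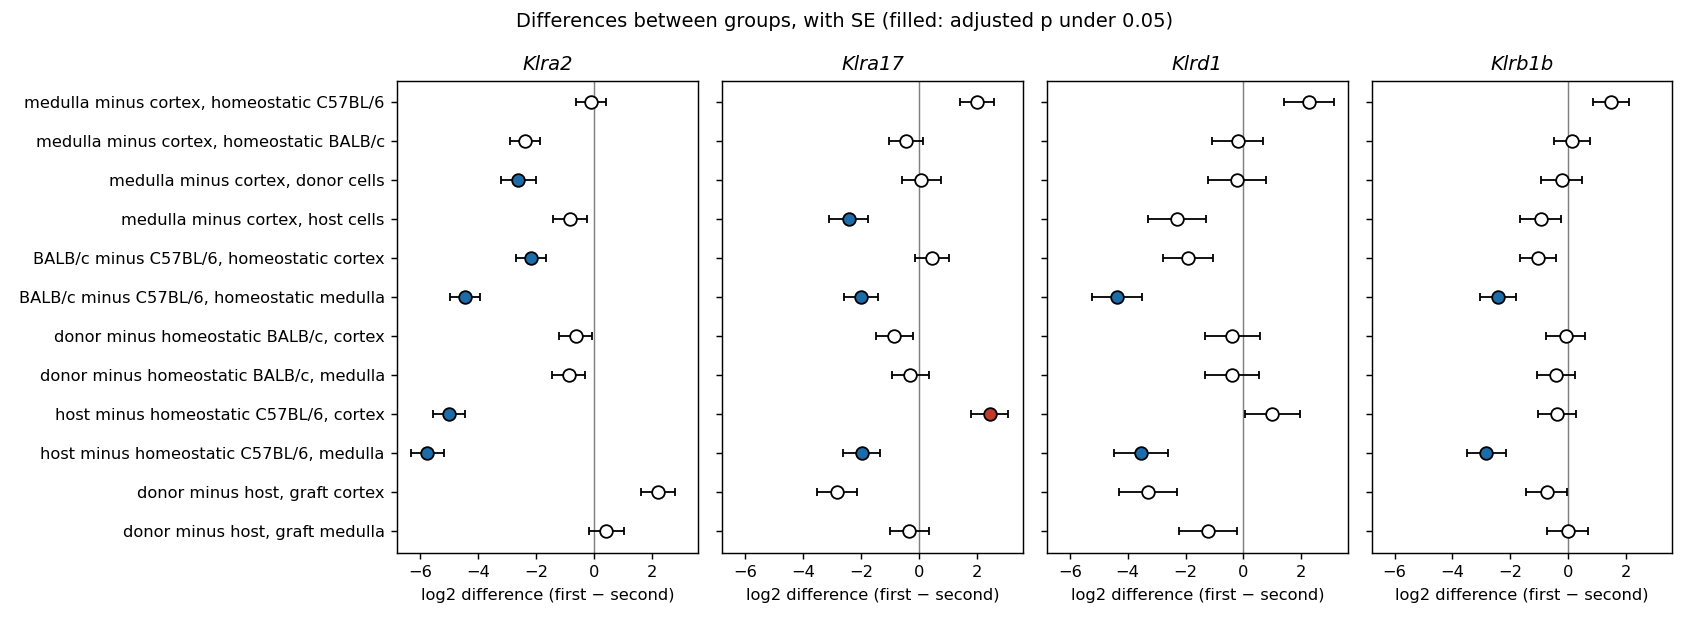
Log2 difference (x axis, first group minus second, with SE) of the 4 tested receptors, 1 panel each, in the 12 comparisons of groups (y axis), from limma on 28 arrays. Filled points passed at an adjusted p under 0.05, blue for lower and red for higher. Klra2 is filled and below 0 for BALB/c and for host against C57BL/6 cells in both regions; Klra17 and Klrb1b entered the test through arrays in which they are high.

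In homeostatic C57BL/6 kidneys, where 0.154% of genes passed between medulla and cortex, limma called none of the 4 receptors. Without adjustment, 3 had a p under 0.05, as did 535 of the 14325 genes. Klra17 was at a log2 difference of 2.00 ± 0.59 (adjusted p = 0.33), Klrd1 at 2.26 ± 0.87 (adjusted p = 0.89) and Klrb1b at 1.49 ± 0.62 (adjusted p = 1). For Klra17 and Klrd1 the regions did not overlap, as in 4.22% of all genes. In BALB/c kidneys, where 0.0698% passed, limma again called none, and 1 receptor had an unadjusted p under 0.05, as did 998 of all genes. This was Klra2, at -2.37 ± 0.52 in medulla (adjusted p = 0.081), which passed with mouse as a random block (adjusted p = 0.045) and without BALB/c medulla replicate 3 (0.046) or 4 (0.022). All 4 receptors overlapped between the BALB/c regions, beside 2.39% of all genes that did not. The interaction contrast of the regional difference between the strains, where 0.0419% of genes passed, called none of the 4.

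Klra2 was lower in donor medulla than in donor cortex, by -2.62 ± 0.60 (adjusted p = 0.015), the only receptor of the 4 that passed where 2.55% of genes did. The donor regions did not overlap in Klra2, as in 15.9% of all genes. With mouse as a fixed block the adjusted p was 0.11. It was 0.11 as well when scaled to leukocyte-wide genes and when the compared groups were fitted alone. It was also above the threshold without donor cortex replicate 1 or 2 or donor medulla replicate 2 or 3 (0.053 to 0.12). Itgax had means of 10.02 ± 0.78 in donor cortex and 7.38 ± 0.19 in donor medulla, and the 12 epithelium-wide genes had means of 9.02 ± 0.38 and 9.91 ± 0.14. Their part in the Klra2 difference was not tested. Against homeostatic BALB/c cells, donor cells differed in none of the 4 receptors by limma, in cortex (where 23.9% of genes passed) or in medulla (3.18%), and none had an unadjusted p under 0.05. Klra17 was below the BALB/c range in donor cells of both regions without passing, and groups did not overlap in 29.9% of all genes in cortex and 15.3% in medulla.

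The largest receptor differences were between host cells and homeostatic C57BL/6 cells. Klra2 was lower in host cells by -5.02 ± 0.56 in cortex (adjusted p = 3.2e-06) and by -5.76 ± 0.56 in medulla (adjusted p = 1.7e-07). Both calls held under every alternative and without any single array. The host and C57BL/6 arrays did not overlap in Klra2 in cortex, as in 14.9% of all genes, nor in Klra2 and Klrb1b in medulla, as in 24.3%. The size in medulla became -3.10 ± 0.61 when arrays were scaled to leukocyte-wide genes. In both regions 9 of 12 tested macrophage markers were lower in host cells and none was higher. Of all genes 4.17% passed in cortex and 11.5% in medulla. Adgre1, which encodes F4/80, differed by -5.62 ± 0.41 in cortex, and C1qc, a chain of complement C1q, by -5.48 ± 0.25. The macrophage marker mean lay at 10.88 to 11.01 in the 8 C57BL/6 arrays and at 7.80 to 8.27 in the 6 host arrays. In BALB/c arrays, in which Klra2 was also lower, it lay at 10.70 to 11.09. In cortex the mean of 6 type 2 dendritic cell markers was 9.80 ± 0.21 in C57BL/6 and 8.20 ± 0.55 in host cells. In medulla it was 10.28 ± 0.09 and 7.17 ± 0.38. BALB/c cells had means of 9.22 ± 0.62 in cortex and 8.98 ± 0.54 in medulla. Itgax was lower in host than in C57BL/6 cells, by -2.16 ± 0.56 in cortex and -3.43 ± 0.56 in medulla. The part of these markers and of Itgax in the Klra2 difference was not tested.

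In cortex 4.17% of all genes passed between host and C57BL/6 cells. Klra17, admitted to the test in part through host cortex arrays, was at 2.45 ± 0.64 there (adjusted p = 0.027). Host cortex replicate 3, at 5.42, lay within the C57BL/6 range. The call was lost without host cortex replicate 1 (1.54 ± 0.61, adjusted p = 0.17) or 2, and without any 1 of the 4 C57BL/6 cortex arrays (0.051 to 0.066). With the compared groups fitted alone its adjusted p was 0.25. In medulla, where 11.5% of genes passed, Klrd1 was lower in host cells besides Klra2, by -3.54 ± 0.94 (adjusted p = 0.013). Klrb1b was at -2.83 ± 0.67 (adjusted p = 0.0054) and Klra17 at -1.97 ± 0.64 (adjusted p = 0.046), both having entered the test through the C57BL/6 arrays that are the high side here. The Klrd1 call was lost without host medulla replicate 2 (-2.53 ± 0.99, adjusted p = 0.13) or 3 (0.098), with array weights (-2.23 ± 0.90, adjusted p = 0.1) and with the compared groups fitted alone (0.13). The Klra17 call was lost without C57BL/6 medulla replicate 1, 3 or 4 or any host medulla array (0.051 to 0.16). The medulla comparisons of strain and of host share the C57BL/6 medulla arrays, in which all 4 genes had their highest or second highest mean. Of 20 leukocyte-wide genes, 16 were lower in host medulla, with a median of -2.74, and 11 of 12 epithelium-wide genes were higher. Scaled to the leukocyte-wide genes, which moved the median of all genes to 2.73, Klra17 was at 0.69 ± 0.54 (adjusted p = 0.22), Klrb1b at -0.17 ± 0.62 and Klrd1 at -0.88 ± 0.78, and none of these 3 passed.

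Within the graft, Klra17 in host medulla was at -2.42 ± 0.68 from host cortex (adjusted p = 0.043), where 4.29% of genes passed and no other of the 4 receptors did. Scaled to leukocyte-wide genes it was at -0.77 ± 0.58 (adjusted p = 0.21). The leukocyte-wide mean was 10.23 ± 0.86 in host cortex and 8.58 ± 0.49 in host medulla, and the epithelium-wide mean 9.02 ± 0.24 and 10.13 ± 0.31. Of 12 plasmacytoid markers 4 were lower in host medulla, Siglech (-2.43 ± 0.63), Bst2 (-1.79 ± 0.35), Lair1 (-2.75 ± 0.65) and Irf7 (-1.65 ± 0.47), and of 11 natural killer markers 3, Ncr1 (-2.45 ± 0.47), Gzma (-2.85 ± 0.80) and Gzmb (-3.11 ± 0.54). Among 14 tested T cell markers, Cd8a was lower in host medulla (-1.39 ± 0.38, adjusted p = 0.036). Ncr1 entered the test only with the host cortex arrays, so its value here is a description. The part of these markers and lists in the Klra17 difference was not tested. Klra2 was the receptor of the 4 whose host regions did not overlap, as in 17.5% of all genes, though its difference did not pass. With mouse as a fixed block the adjusted p of Klra17 was 0.39. The call was lost without any host array but cortex replicate 3, and without cortex replicate 1 the difference was -1.51 ± 0.64 (adjusted p = 0.32). Klrd1 was at -2.29 ± 1.00 (adjusted p = 0.29), and without host medulla replicate 1 it was at -3.99 ± 0.80 (adjusted p = 0.004). The regional difference of Klra17 had opposite signs in host and homeostatic C57BL/6 cells. The interaction contrast was -4.42 ± 0.90 (adjusted p = 0.015), where 0.901% of genes passed. Klra17 entered the test only through C57BL/6 medulla and host cortex, the groups that make this contrast negative, so the value is a description and no independent result. Its adjusted p was 0.13 with mouse as a fixed block and 0.054 without host cortex replicate 2. The same contrast for Klrd1 was -4.54 ± 1.33 (adjusted p = 0.14) and passed without host medulla replicate 1 (-6.25 ± 1.01, adjusted p = 0.0015) or host cortex replicate 3 (adjusted p = 0.041).

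Donor and host cells of the same grafts were compared directly. In cortex, where 0.496% of genes passed, limma called none of the 4 receptors, although 3 had an unadjusted p under 0.05, as did 800 of all genes, and groups that did not overlap, as in 7.42% of all genes. Klra2 was higher in donor cortex by 2.21 ± 0.60 without passing (adjusted p = 0.15), Klra17 was at -2.82 ± 0.68 (adjusted p = 0.067) and Klrd1 at -3.31 ± 1.00 (adjusted p = 0.28). Klra17 passed with mouse as a random block (adjusted p = 0.034) and without host cortex replicate 3 (-4.03 ± 0.51, adjusted p = 8.1e-05). Klra2 passed without donor cortex replicate 3 (2.76 ± 0.63, adjusted p = 0.039). In medulla, where 0.593% passed, none was called and none had an unadjusted p under 0.05. The 3 donor medulla arrays were above the 3 host medulla arrays in Klra2, and 8.32% of all genes had groups without overlap there. Scaled to leukocyte-wide genes, whose median difference of donor from host medulla was 1.03, 2 of the 4 receptors were called. That scaling moved the median of all genes to -1.2, so genes as a whole were shifted lower in donor cells. The share of 0.593% is that of the unscaled fit and cannot be set beside this count. The donor and host cells carry the strain labels of the homeostatic mice, so the donor-host difference was also set against the strain difference by an interaction contrast. For Klra2 it exceeded the strain difference by 4.38 ± 0.79 in cortex (adjusted p = 0.0086), where 0.775% of genes passed, and by 4.88 ± 0.79 in medulla (adjusted p = 0.0019), where 1.14% passed. BALB/c cells were thus below C57BL/6 cells in Klra2 in healthy kidneys, and all donor arrays were above the host arrays of their region in the grafts. In graft medulla, however, the donor-host difference was 0.43 ± 0.60 and did not pass. The medulla contrast thus rested mostly on the strain difference of -4.45 ± 0.52. Of the graft medulla arrays, 1 of 3 donor and 0 of 3 host arrays were above the 40th percentile in Klra2. These Klra2 contrasts held under every alternative and without any single array. Klra17 passed the cortex contrast without host cortex replicate 3 (-4.50 ± 0.65, adjusted p = 0.00075), and Klrd1 the medulla contrast without host medulla replicate 1 (4.86 ± 1.01, adjusted p = 0.015).

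Because CD94, NKG2A and Ly49Q are also found on natural killer cells or plasmacytoid dendritic cells, markers of both were read beside them. Of 20 natural killer markers named, 19 were measured and 11 were tested. Their mean over the 11 was 7.60 to 8.38 in the 8 homeostatic C57BL/6 arrays. In host cortex it was 9.70, 9.31 and 8.23, and in host medulla 7.39 to 7.93. Ncr1, which encodes the natural killer receptor NKp46, was below the 40th percentile in all 8 homeostatic C57BL/6 arrays and above it in all 3 host cortex arrays, at 8.56, 8.81 and 8.72. Eomes, a transcription factor of natural killer cells, was below the percentile in all 28 arrays. Klrb1c, which encodes NK1.1, was above it in 1 array, host cortex replicate 2 (8.27), and Klre1 in 1, host cortex replicate 1 (9.00). Some other markers of the list were brighter in homeostatic C57BL/6 cells. Gzma was at 9.63 ± 0.36 in cortex and 8.39 ± 1.27 in medulla. Xcl1 was at 8.96 ± 1.31 and 9.70 ± 1.11, and Cd244a at 9.98 ± 0.75 and 10.38 ± 0.25.

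Host cortex exceeded C57BL/6 cortex in 3 of the 11 natural killer markers, Ncr1 (2.19 ± 0.44, adjusted p = 0.0036), Nkg7 (2.22 ± 0.44, adjusted p = 0.0033) and Gzmb, which encodes granzyme B (3.29 ± 0.51, adjusted p = 0.00027), and was lower in 1, Cd244a (-1.32 ± 0.36, adjusted p = 0.037). Of all genes 4.17% passed there. Ncr1 was above the 40th percentile in 4 of 28 arrays, the 3 of host cortex and 1 of BALB/c cortex. It met the filter of 3 arrays only with host cortex, so its differences from that group are a description. Of 14 plasmacytoid markers named, 12 were measured and tested, and 4 of them were higher in host cortex, Siglech (2.69 ± 0.59, adjusted p = 0.0081), the chemokine receptor gene Ccr9 (2.49 ± 0.64, adjusted p = 0.025), Cox6a2 (1.29 ± 0.31) and Pacsin1 (0.98 ± 0.28). The plasmacytoid mean was 10.84, 9.91 and 8.47 in host cortex replicates 1 to 3. Klra17, Klrd1 and Klrc1 had the same order over these 3 arrays, and so had the means of natural killer, T cell, type 1 and type 2 dendritic cell markers and of the leukocyte-wide genes (11.11, 10.18 and 9.40). The proximal tubule mean had the opposite order, at 10.87, 11.48 and 11.89. The plasmacytoid mean was 8.66 to 9.04 in the 8 C57BL/6 arrays and 8.17 to 8.76 in host medulla. Siglech itself was at 12.78, 11.01 and 8.19 in host cortex. The part of these markers in the receptor values of host cortex and of the C57BL/6 arrays was not tested. Of 14 tested T cell markers, none passed between host and C57BL/6 cells in either region.

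**Figure D3:**
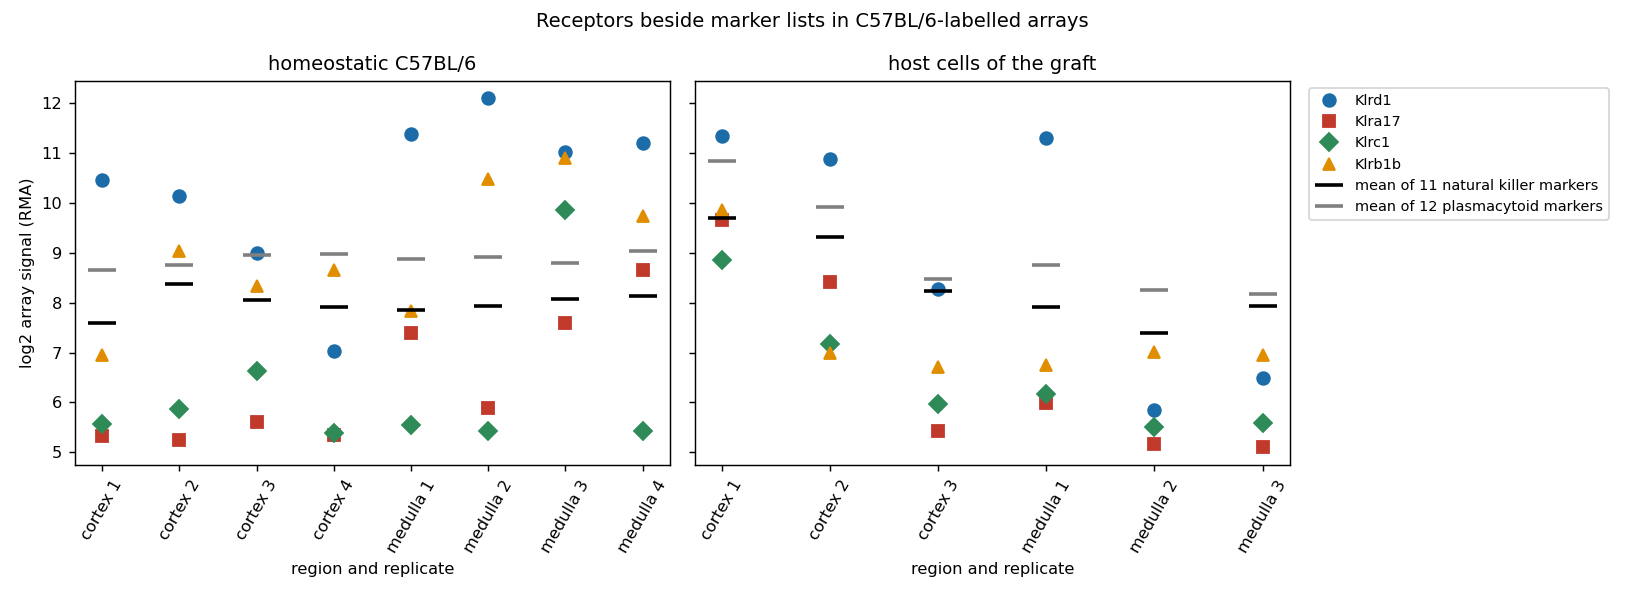
Log2 array signal (y axis) of Klrd1, Klra17, Klrc1 and Klrb1b in each C57BL/6-labelled array (x axis), homeostatic on the left and host on the right, with short lines for the mean of 11 natural killer and 12 plasmacytoid markers. Points are to be read along the arrays and not between genes: the natural killer marker mean is 9.70, 9.31 and 8.23 in the 3 host cortex arrays.

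Along chromosome 6 the receptors lie among other lectin genes, of which 25 were measured and 11 tested. Between the strains in medulla, where 9.1% of all genes passed, 2 of these 11 were lower in BALB/c cells and none was higher. These were Klrb1-ps1, a relative of Klrb1b (-2.50 ± 0.44, adjusted p = 0.0031), and Klri1 (-1.84 ± 0.53, adjusted p = 0.037), which lies between Klrc1 and Klra17. Their means were 9.79 ± 1.34 and 8.66 ± 1.51 in C57BL/6 medulla and no higher than 7.75 and 7.29 in any other group, near the 40th percentile, so that they too were tested largely through the group in which they are high. Clec9a, a receptor of type 1 dendritic cells for dead cells, was at -2.50 ± 0.85 (adjusted p = 0.062), and Clec7a, which encodes Dectin-1, at 0.16 ± 0.32 (adjusted p = 0.75). The median of the 11 was -0.82, beside 0.17 for all genes. In host medulla against C57BL/6 medulla, Klrb1-ps1 (-2.71 ± 0.47, adjusted p = 0.00036) and Klri1 (-1.90 ± 0.57, adjusted p = 0.031) were lower as well. Klrb1f, another NKR-P1 gene, was at 1.54 ± 0.40 in host cortex against C57BL/6 cortex (adjusted p = 0.026). Its means in the other groups were 6.67 to 7.09, below the percentile. It was thus tested largely through host cortex, in which it is high, and this value is a description. Of the other Ly49 genes only Klra5 was read by a probeset of its own. It was not tested, with group means of 4.79 to 5.18, and probesets that name several Ly49 genes were not used.

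**Figure D4:**
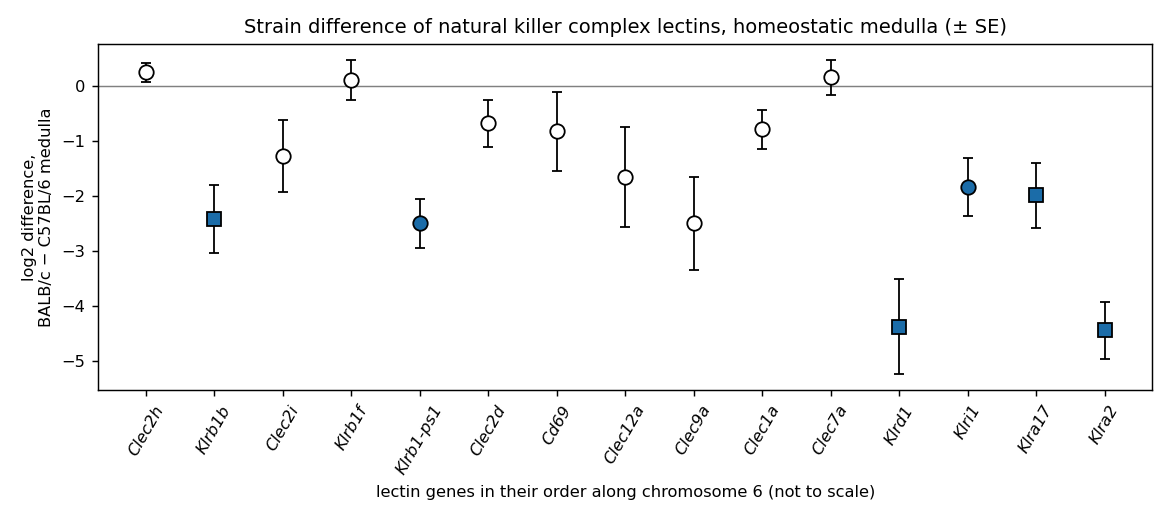
Log2 difference of BALB/c from C57BL/6 medulla (y axis, with SE) for the tested lectin genes of the natural killer gene complex in their order on chromosome 6 (x axis, not to scale). Squares are the 4 receptors described here, circles the 11 other genes, and filled symbols passed at an adjusted p under 0.05. Filled symbols are the 4 squares, of which Klra17 and Klrb1b entered the test through C57BL/6 arrays, and Klrb1-ps1 and Klri1, all below 0.

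Signalling partners and ligands followed from fixed lists. Of 14 tested adaptors and phosphatases, 1 was lower in BALB/c cells in each region, Ptpn11 in cortex (-1.36 ± 0.32) and Plcg2 in medulla (-1.43 ± 0.35). Between the strains 9.8% of all genes passed in cortex and 9.1% in medulla, in either direction. Between host and C57BL/6 cells 4.17% of all genes passed in cortex and 11.5% in medulla, in either direction. Of the 14, 2 in cortex, Fcer1g (-2.07 ± 0.53) and Inpp5d (-1.66 ± 0.45), and 7 in medulla were lower in host cells. Those in medulla included Tyrobp, which encodes the adaptor DAP12 (-1.80 ± 0.28, adjusted p = 8.4e-05), Ptpn6, which encodes SHP-1 (-2.26 ± 0.37, adjusted p = 0.00018), and Inpp5d, which encodes the lipid phosphatase SHIP-1 (-3.57 ± 0.45, adjusted p = 8.6e-06). The median of the list there was -1.50, beside 0.07 for all genes and -2.74 for the leukocyte-wide genes. Tyrobp was at 13.23 ± 0.06 in C57BL/6 and 13.15 ± 0.11 in BALB/c medulla, between which Klra2 and Klrd1 differed. Of 4 tested ligand genes, H60b, which encodes an NKG2D ligand, was lower in BALB/c than in C57BL/6 medulla (-3.49 ± 0.59, adjusted p = 0.0023). It was also lower in host than in C57BL/6 cells, by -2.65 ± 0.63 in cortex (adjusted p = 0.016) and -4.07 ± 0.63 in medulla (adjusted p = 1e-04). B2m, the light chain of class I molecules, was lower in host medulla by -0.54 ± 0.12 (adjusted p = 0.0027), and H2-M3, a non-classical class I gene, by -1.67 ± 0.45 (adjusted p = 0.014). Clec2d, the ligand gene of NKR-P1B, did not pass in any of the 12 comparisons.

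Over the 28 arrays the genes whose levels ran most like Klra2 were Mctp1 (Pearson r = 0.91), Gsap (0.90) and Dnase1l3 (0.88). For Klra17 they were Nemp2, Il7r and Tbc1d8, each at 0.82, and for Klrd1 Ly6e (0.79), Trim12a (0.79) and Fgr (0.78). For Klrb1b they were Itgb7 (0.80), Itgal (0.77) and Flt3 (0.77), and for Klrc1 Iffo2 (0.78), Serpinb6b (0.75) and Vps8 (0.72). Among the receptors, Klra17 and Klrd1 had the highest r, 0.70, and Klra2 had r = 0.13 with Klra17 and 0.00 with Klrc1. The arrays share groups, mice and cell content, so these values describe the arrays and carry no test.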

How the data were processed

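The deposited table holds log2 signal of 28 Affymetrix arrays that the authors made by RMA in oligo, per the submitters' processing notes. No source used here gives their versions. RNA had been amplified before labelling, per the labels' protocols, and the number of arrays limits the precision. Of 22549 probesets, 20646 with 1 gene symbol were used, and 551 with several and 1352 with none were left out. The brightest probeset by mean stood for each of 19272 genes. The model, in limma 3.58.1 (R 4.3.3), had a mean for every group and 20 residual degrees of freedom, and tests were 2-sided, with Benjamini-Hochberg adjustment over the 14325 genes tested. The procedure was tested on simulated data. There were 12 comparisons of groups and 5 interaction contrasts. The receptors and the gene lists were chosen with earlier results of these data known. Named genes were drawn from the receptors, the other killer lectins measured and the sort markers. They were also drawn from up to 4 genes of each list with the smallest adjusted p, not all of which are named. The 3 genes most like each receptor by Pearson r were named too. Eomes, Ccr9, Cox6a2, Pacsin1, Irf7, Gzma, Xcl1, Tbx21, Fcer1g, Ptpn11 and Plcg2 were named after their values were seen.

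Same-numbered arrays come from the same mouse, per the labels. The mean correlation of their deviations from the group means was 0.155 between donor regions, 0.106 between host regions, 0.22 and 0.171 between donor and host cells, and -0.003 and -0.006 between regions of C57BL/6 and BALB/c kidneys. Mouse as a block was an alternative, as were no filter, another normalization, a robust variance trend, array weights, fits of the compared groups alone, scaling to leukocyte-wide genes and leaving out each array.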

Additional observations from a re-analysis of the deposited data

Results flagged for a closer look

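The 5 receptors in the 4 homeostatic groups give 20 sets of 4 arrays. In 3 of these, 1 array stood apart from the others, and chance gives about 1 in 20. Klrc1 was at 9.86 in C57BL/6 medulla replicate 3. Klrb1b was at 8.67 in BALB/c medulla replicate 1, the array with the lowest mean correlation with its own group (0.788, against 0.848 to 0.95 in the others). Klrd1 was at 7.72 in BALB/c cortex replicate 1.

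The following contrasts differed between groups by an interaction test in limma. The medulla-cortex difference of Klra17 in host cells minus that in homeostatic C57BL/6 cells was -4.42; this gene entered the test only through C57BL/6 medulla and host cortex arrays, so the value is a description. The donor-host difference of Klra2 minus its strain difference was 4.38 in cortex and 4.88 in medulla.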

How the results depend on the processing

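Of the 32 receptor differences with an unadjusted p under 0.05, 206 of the values under other settings stayed on the same side of the threshold in the same direction, 23 lost and 9 gained a call, and 1 changed sign: Klra17 in host against C57BL/6 medulla, at 0.69 when scaled to leukocyte-wide genes. Without 1 array, 258 stayed, 35 lost and 9 gained a call. The following are counts of receptors called. Scaling to leukocyte-wide genes left 0 in the donor and host regional comparisons and between strains in cortex. It left 2 between strains in medulla and 1 in host against C57BL/6 medulla. It gave 1 between donor and host cortex, 2 in medulla and 2 for the regional contrast of host and C57BL/6 cells. The same scaling moved the median of all genes to -1.2 between donor and host medulla and to 1.91 for that contrast. Fitted alone, the compared groups gave 0 for both graft regional comparisons and that contrast, 2 for strains in medulla, and 1 in cortex and 2 in medulla for host against C57BL/6. Array weights gave 1 between C57BL/6 regions, 2 between donor and host cortex and 2 for the donor-host contrast in cortex. No filter and a robust trend each gave 0 between host regions, and a second quantile normalization gave 1 between BALB/c regions.

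Mouse as a random block gave 1 between BALB/c regions and 1 between donor and host cortex, and as a fixed block 0 between donor regions, between host regions and for the regional contrast of host and C57BL/6 cells. The block changed no other call. Without 1 array, the counts ran from 2 to 4 for strains in medulla and for host against C57BL/6 medulla, from 1 to 2 for host against C57BL/6 cortex and both donor-host contrasts, from 0 to 2 for the regional contrast of host and C57BL/6 cells, and from 0 to 1 for strains in cortex, donor and host cortex, and the regions of BALB/c, donor and host cells. The others stayed at 0. A fixed block could not be fitted where groups share no mice, and other probesets of a receptor were not run, since each had 1.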
